A study of Mus musculus with 6 samples.

Results

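The Iroquois homeobox genes Irx1 to Irx6 were each measured by a single probe set in hearts of E12.5 mouse embryos, on Affymetrix expression arrays. Members were chosen as the probe sets whose platform annotation names exactly 1 gene symbol, with that symbol in the family. This gave 6 genes of 18193 named in that way, and 6 probe sets of 34945. Of the 6 arrays, 3 were labelled wildtype and 3 were labelled Rhau KO, which marks deletion of Rhau, an older name of the RNA helicase gene Dhx36. All hearts came from the C57BL/6 strain, and no drug or other treatment is named. The deleted part of the gene, the allele and any Cre driver are not given in the sources used here, nor is the cell type in which the gene was lost. The design text counts 3 hearts in each group and 6 RNA samples, and nothing states whether the hearts came from separate litters, so p-values measure only the spread between these arrays.

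Iroquois proteins are homeodomain transcription factors of the TALE class, named for an extension of the loop between helices in the homeodomain. Mammals carry their genes in paired clusters, and each gene of one cluster has a counterpart in the other. In the mouse heart Irx4 marks the ventricular myocardium, Irx3 the trabecular myocardium and later the fast conduction system, Irx1 and Irx2 the ventricular septum, and Irx5 the endocardium in the embryo. In the RefSeq gene table (GRCm38.p6), Irx1, Irx2 and Irx4 lie together on chromosome 13 and Irx3, Irx5 and Irx6 on chromosome 8, with 0 other protein-coding genes inside either cluster.

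The targeted gene went against the labels, and directions are therefore given by label throughout; exchanged labels would turn every one of them. Under the Rhau KO label Dhx36 signal was raised on all 3 of its probe sets, by 0.90 to 1.41 on the log2 scale, with the groups apart on each. Whether the labels were exchanged, or whether these probe sets lie outside the deleted part and so check nothing, was not tested. Cardiomyocyte markers were bright: over the brightest probe set of each of 11 measured markers, the lowest log2 signal on any array was 11.61. Y-linked signal (the mean of 3 genes, each in percent of its highest array) came to 1.23, 2.04 and 39.3 in replicates 1 to 3 labelled wildtype and 59.6, 82.8 and 100 in replicates 1 to 3 labelled Rhau KO, so it moved with the label. Xist, the RNA of the inactive X chromosome in female cells, ran the other way, at 100, 98.0 and 77.2 percent of its highest array under the wildtype label and 61.1, 35.8 and 0.232 percent under the Rhau KO label. Wildtype replicate 3 and Rhau KO replicates 1 and 2 thus held both signals, which cells of a single embryo normally do not. Whether these arrays hold RNA pooled from several hearts was not tested, so n counts arrays and may not count embryos. Array lots and scan times are not given in the sources used here. Precision is set by the 3 arrays of each label.

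Irx3 and Irx2 were higher in the arrays labelled Rhau KO, by 1.59-fold and 1.65-fold, and each comes from a different cluster. The other 4 members, Irx1, Irx4, Irx5 and Irx6, did not pass the test. A probe set was called at a Benjamini-Hochberg adjusted p below 0.05 in limma, a linear-model test that borrows variance across probe sets. All 6 members lay above the filter on low signal and were tested. Thus 2 of 6 were called higher and 0 lower, where 6.75% of all 27022 tested probe sets were called higher and 6.88% lower. With 6 probe sets, the count is a description of the family and no test of it. The median difference of the members was 0.14, against 0.04 over all probe sets tested.

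**Figure D1:**
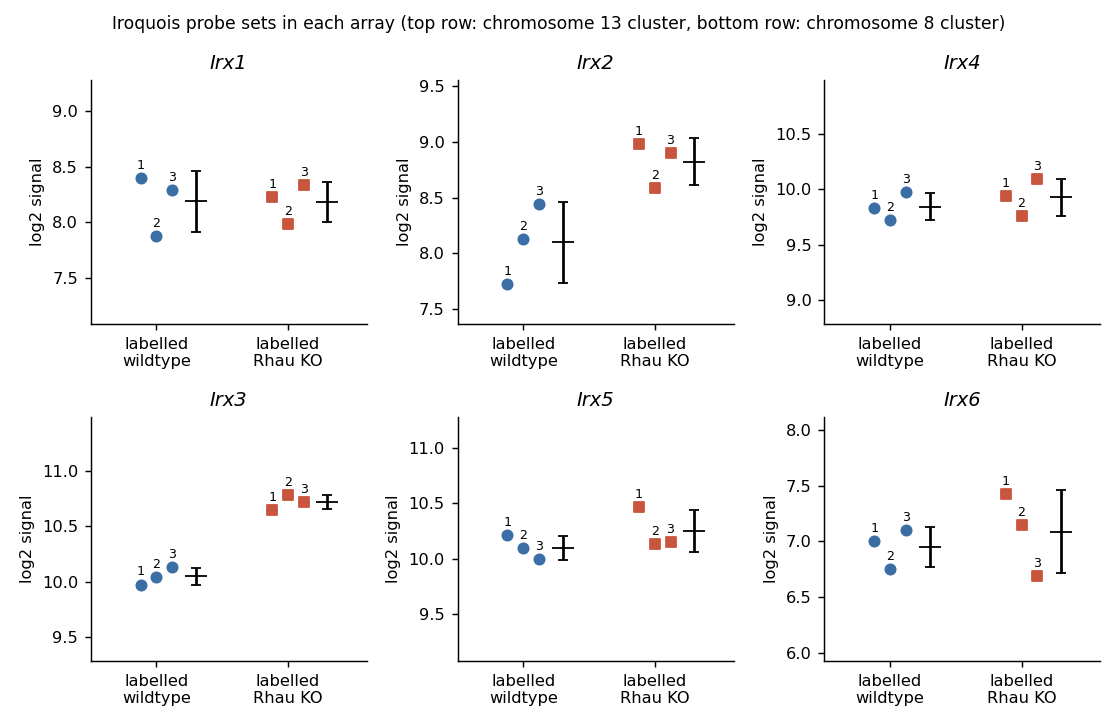
Log2 signal of each Iroquois probe set (vertical axis, the same span in every panel) in the arrays labelled wildtype (blue circles) and labelled Rhau KO (red squares), with replicate numbers; bars give mean ± SD, n = 3. The groups are apart for Irx3 and Irx2 and overlap for Irx1, Irx4, Irx5 and Irx6.

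Irx3, the factor of trabeculae and conduction fibres, gave the clearest difference of the family. Its log2 signal was 9.98, 10.04 and 10.13 in replicates 1 to 3 labelled wildtype and 10.65, 10.78 and 10.72 in replicates 1 to 3 labelled Rhau KO. On the linear scale these are 1006, 1052 and 1121 against 1606, 1760.1 and 1687. Every array labelled Rhau KO lay above every array labelled wildtype. The gap between the nearest arrays of the groups was 0.52, while the whole range within a label was at most 0.16. Means were 10.05 ± 0.08 and 10.72 ± 0.07 (SD, n = 3 each), a difference of 0.67 (SE 0.068, limma adjusted p = 2.05e-04), with a 95% interval on the fold from 1.43 to 1.76. The call held with each array left out in turn, at 0.63 to 0.71. When Y-linked signal entered the fit as a covariate, Irx3 stood at 0.49 (SE 0.142, limma adjusted p = 0.202). Within the wildtype label Irx3 followed the order of Y-linked signal (9.98 at 1.23%, 10.04 at 2.04% and 10.13 at 39.3%). Summed linear Y-linked signal there was 18.1, 36.5 and 1256, so the order of replicates 1 and 2 rests on low signal. Within the Rhau KO label Irx3 read 10.65 at 59.6%, 10.78 at 82.8% and 10.72 at 100%.

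Irx2, a gene of the other cluster, had a difference of like size and far more spread. Its log2 signal was 7.72, 8.13 and 8.44 in the arrays labelled wildtype and 8.98, 8.59 and 8.90 in those labelled Rhau KO. Here too the groups were apart, but the gap between the nearest arrays was 0.14 and the range within the wildtype label was 0.72. Means were 8.10 ± 0.36 and 8.82 ± 0.21 (SD, n = 3 each), a difference of 0.73 (SE 0.177, limma adjusted p = 0.0223). The 95% interval on the fold ran from 1.26 to 2.17. The call was lost without replicate 1 labelled wildtype (0.54, limma adjusted p = 0.0609), without replicate 2 labelled wildtype (0.74, limma adjusted p = 0.0586), without replicate 1 labelled Rhau KO (0.65, limma adjusted p = 0.0722) and without replicate 3 labelled Rhau KO (0.69, limma adjusted p = 0.0645). It was also lost when the variance was modelled without a trend on signal (limma adjusted p = 0.0877). In the covariate fit Irx2 stood at 0.32 (SE 0.376, limma adjusted p = 0.795). Within the wildtype label Irx2 also followed the order of Y-linked signal, from 7.72 at 1.23% to 8.44 at 39.3%, with the same limit for replicates 1 and 2. Within the Rhau KO label it did not, with its highest value, 8.98, at 59.6%, then 8.59 at 82.8% and 8.90 at 100%. The part of Y-linked signal in the Irx3 and Irx2 differences was not settled by these arrays, since it moved with the label.

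The groups of these members did not overlap, but this was common: 33.9% of all tested probe sets had groups apart in one or the other direction, and 19.4% had the Rhau KO label above.

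Irx4, which marks ventricular muscle and needs Nkx2-5 and Hand2 for its expression there, was called in neither direction. Its log2 signal was 9.83, 9.73 and 9.97 in the arrays labelled wildtype and 9.94, 9.75 and 10.09 in those labelled Rhau KO. The groups overlapped, and the difference was 0.08 (SE 0.098, limma adjusted p = 0.621). The 95% interval on the fold was 0.91 to 1.23 in this fit, and in the covariate fit the difference was -0.19 (limma adjusted p = 0.759). Nkx2-5 itself, in the same arrays, was lower under the Rhau KO label by 1.29 on the log2 scale, from 12.18 ± 0.07 to 10.89 ± 0.08 (SD, n = 3 each). Hand2 stood at -0.05 with limma adjusted p = 0.685.

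Irx5, an endocardial factor that acts later as a repressor of a potassium channel gene, overlapped between the labels. It read 10.21, 10.09 and 9.996 in the arrays labelled wildtype and 10.47, 10.13 and 10.15 in those labelled Rhau KO. Replicate 1 labelled Rhau KO was the highest array, and the others of that label lay inside the wildtype range. The difference was 0.15 (SE 0.097, limma adjusted p = 0.341; interval on the fold 0.96 to 1.29). In the covariate fit it was 0.55 (SE 0.169, limma adjusted p = 0.224), and without replicate 1 labelled Rhau KO it was 0.04, so the size of this difference moved with both choices and passed with neither.

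Irx1, the neighbour of Irx2 on chromosome 13, had nearly the same mean under both labels. Its values of 8.40, 7.88 and 8.29 under the wildtype label enclosed those of 8.23, 7.98 and 8.33 under the Rhau KO label. The difference was -0.0080 (SE 0.156, limma adjusted p = 0.981), and the interval on the fold ran from 0.78 to 1.26. Irx6, at 7.01, 6.75 and 7.10 against 7.42, 7.15 and 6.69, held both the highest and the lowest array in the Rhau KO label. It differed by 0.13 (SE 0.216, limma adjusted p = 0.736; interval on the fold 0.79 to 1.53). The intervals of both genes are wide, and changes inside them could not be told from 0 with these arrays.

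**Figure D2:**
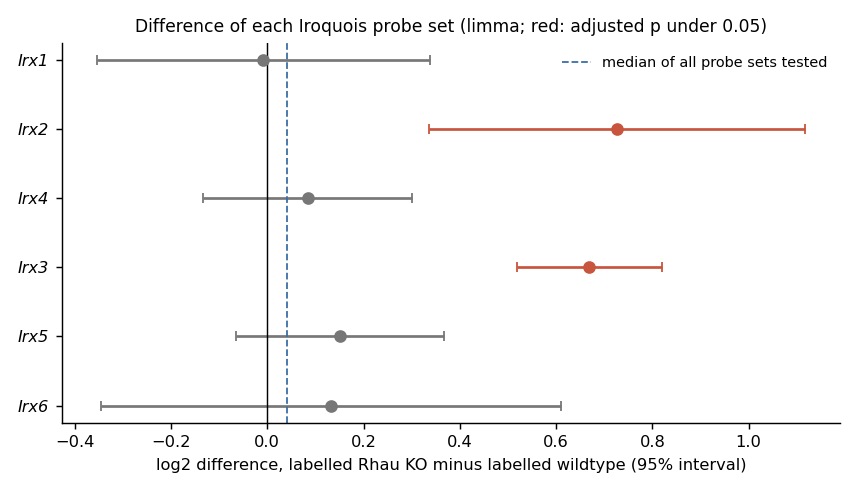
Log2 difference of each Iroquois probe set, labelled Rhau KO minus labelled wildtype (horizontal axis), with limma's 95% interval; red marks adjusted p below 0.05 and the dashed line the median of all probe sets tested, 0.04. The intervals of Irx2 and Irx3 lie above 0 and those of Irx1, Irx4, Irx5 and Irx6 cross it.

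Members of one cluster were then compared within each array, where array scaling cancels. Irx3 over Irx5 was -0.24, -0.06 and 0.13 on the log2 scale in the arrays labelled wildtype and 0.18, 0.65 and 0.57 in those labelled Rhau KO. The groups were apart, by a mean of 0.52. Irx2 over Irx1 was -0.68, 0.25 and 0.15 against 0.76, 0.60 and 0.57, a shift of 0.73, and Irx2 over Irx4 shifted by 0.64, both with the groups apart. Irx3 over Irx6 shifted by 0.54 with overlapping groups (exact permutation p = 0.20, two-sided). Irx1 over Irx4 and Irx5 over Irx6, pairs of members with no call, shifted by -0.09 and 0.02 and overlapped. Of these 6 pairs, the 3 whose groups were apart had exact permutation p = 0.10, the smallest that 3 arrays against 3 can give, and p = 0.20 after Benjamini-Hochberg adjustment over the 6 pairs. The design cannot reach 0.05 for a single ratio, so unequal change within a cluster is given here as values. The shifts follow from the member differences given above, so they are no separate support for the Irx3 and Irx2 calls. A signal of one probe set is not on the scale of another, and only the shift of a ratio between labels can be read.

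**Figure D3:**
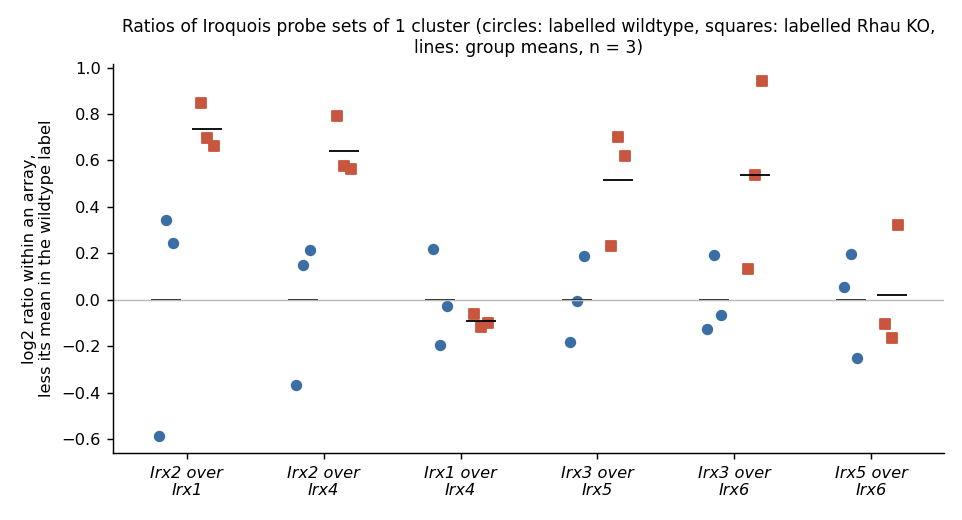
Log2 ratio of a pair of Iroquois probe sets of the same cluster within each array, less the mean ratio of the wildtype label (vertical axis); blue circles are arrays labelled wildtype, red squares arrays labelled Rhau KO and lines group means, n = 3. Irx2 over Irx1, Irx2 over Irx4 and Irx3 over Irx5 have the groups apart, and the other 3 pairs overlap.

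Promoter sequence was available for 3 members in the RefSeq promoter table (GRCm38.p6): Irx3, Irx2 and Irx4. It is shown because Irx3 and Irx2 were higher and because Dhx36 unwinds G-quadruplexes, structures that form from runs of guanines. The 250 bases before the Irx3 start, chr8:91801655-91801904 on the minus strand, are given 5′ to 3′ with the match to GGGNGGG in capitals. For Irx2 (chr13:72628713-72628742, plus strand) and Irx4 (chr13:73260433-73260462, plus strand), whose windows lie before a start inside the longer RefSeq span of the gene, 30 bases around matches to that motif are given; the capitals of Irx2 hold 2 overlapping matches and those of Irx4 hold 1.
Irx3: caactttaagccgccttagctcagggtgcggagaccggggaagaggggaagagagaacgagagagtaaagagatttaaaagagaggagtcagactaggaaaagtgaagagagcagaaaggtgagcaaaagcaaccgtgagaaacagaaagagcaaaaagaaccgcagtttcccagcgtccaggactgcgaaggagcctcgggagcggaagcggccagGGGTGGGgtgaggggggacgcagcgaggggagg
Irx2: gcggagcagGGGAGGGGCGGGcaccagaat
Irx4: tgggcggccGGGTGGGagcaactcgctcgc

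GGGNGGG, searched on both strands, had 5 matches in the Irx2 window, some of them overlapping, and 1 each in those of Irx3 and Irx4. It occurs in 44.8% of 32851 promoter windows of the same length. A stricter pattern of 4 runs of GGG separated by 1 to 7 bases, on either strand, was found in the Irx2 window and not in the others; 16.6% of all windows hold it. The Iroquois binding site ACANNTGT, a palindrome, was in none of the 3 windows and is in 6.31% of all. The Nkx2-5 site TNAAGTG (10.1% of all windows) and the T-box core AGGTGT (11.8%), both searched on either strand, were also in none of the 3. GC content was 56.0% for Irx3, 68.4% for Irx2 and 68.8% for Irx4, against a median of 52.4%. These matches describe the letters of the windows and say nothing on binding.

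The 5 nearest protein-coding genes on each side of each cluster were read for comparison. Of these 20 genes, 16 had a probe set naming them alone, and 21 probe sets of 14 genes were tested. Of the 21, 1 was called higher and 3 lower, where 6.75% of all tested probe sets were higher and 6.88% lower. Mrpl36, a mitochondrial ribosomal protein gene beyond Irx4, was higher by 0.44 (limma adjusted p = 0.00472). Med10, a Mediator subunit gene beyond Irx1, was lower by 0.45, Ube2ql1 on the same side was lower by 0.82 and Aktip, beyond Irx3, was lower by 0.32. The other Aktip probe set tested stood at -0.10 with no call. The Ube2ql1 call was lost with each array left out in turn except replicate 1 labelled Rhau KO, at adjusted p up to 0.124, and the Aktip call without replicate 2 labelled wildtype, at 0.0529. Without a variance trend both were lost, at 0.114 and 0.0505, and Ube2ql1 also without the filter and with array weights, at 0.0893 and 0.0551. In the covariate fit none of these 4 neighbours was called, with Mrpl36 at 0.22, Med10 at -0.47, Ube2ql1 at -0.45 and Aktip at -0.28 (limma adjusted p from 0.183 to 0.794). The remaining 17 did not pass, among them Fto, the gene next to Irx3 whose introns hold enhancers that contact Irx3, at 0.09 (limma adjusted p = 0.534). Ice1 and Adamts16, the nearest genes with a probe set on the Irx1 side, had no call either.

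Outside the Iroquois family, none of the 9 measured TALE homeobox genes (Meis, Pbx, Pknox and Tgif genes) passed on the brightest probe set of the gene, where 6.77% of 12416 genes counted that way were higher and 9.75% lower. Their median was 0.03, against 0.01 over those genes. Pbx3 and Pbx2, partners of Hox and Meis proteins, were the brightest and stood at -0.17 and 0.04. Other probe sets of Meis1 and Meis2 did pass: one of Meis1 was higher by 0.47 and a pair of Meis2 by 0.36 and 0.45, named here after their values were seen. A further tested Meis1 probe set went the other way, at -0.88 with no call (limma adjusted p = 0.120). A further Meis2 probe set stood at 0.19 with no call (limma adjusted p = 0.159).

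Of partners, regulators and targets reported for Iroquois factors, 2 of 16 measured genes were called higher and 4 lower. Over all 12416 genes counted by the brightest probe set, 6.77% were higher and 9.75% lower, and no test of the list was made. The potassium channel gene Kcnd2, which Irx5 represses in the mouse ventricle together with the muscle histone methyltransferase Smyd1, read 6.23, 5.79 and 6.44 in the arrays labelled wildtype and 8.02, 7.98 and 8.02 in those labelled Rhau KO. That is a difference of 1.85 (SE 0.194, limma adjusted p = 2.39e-04), a fold of 3.62, while Irx5 itself was not called. The Kcnd2 values under the wildtype label lie near the filter level of 5.90, so the size of this fold rests on low signal. With a pseudocount of 64 the Kcnd2 difference was 1.24. The other tested Kcnd2 probe set was also called higher (limma adjusted p = 0.00109). Kcnd2 probe sets set aside by the filter went both ways, at 2.37 and -1.22. Smyd1 was lower by 0.25 on its brightest probe set (limma adjusted p = 0.0146) and by 0.94 and 0.35 on others that were called (limma adjusted p = 8.29e-04 and 0.00434). A further pair of tested Smyd1 probe sets stood at -0.53 and 0.12 without a call. Trps1 and Cxcl12, a zinc-finger partner of Irx5 and a chemokine gene they repress together, stood at 0.38 and -0.30, both called. Other Trps1 probe sets stood at -0.01, -0.29 and -0.18 without a call, and the other tested Cxcl12 probe set at -0.22 (limma adjusted p = 0.0582). Tbx5, a T-box factor of the atria and conduction system, was lower by 0.37 (limma adjusted p = 0.0458) and Nkx2-5 by 1.29. The other Tbx5 probe set stood at -0.45 with no call (limma adjusted p = 0.0627). Gja5 and Gja1, gap junction genes that Irx3 activates and represses, stood at 0.43 and -0.14 with no call. Smyd1 and Cxcl12 are named outside the naming rule, after their values were seen.

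The Trps1 call was lost with each array left out in turn, at adjusted p from 0.0526 to 0.104. The Tbx5 call was lost without wildtype replicate 1 or 3 and without Rhau KO replicate 1 or 2, at 0.112 to 0.155, and the Smyd1 call without replicate 1 or 2 labelled wildtype, at 0.0543 and 0.0616. Without a variance trend 1 gene of the list was higher and 1 lower: Trps1 (0.0508), Cxcl12 (0.0765), Smyd1 (0.101) and Tbx5 (0.134) lost their calls, and Kcnd2 and Nkx2-5 did not. Trps1 also lost its call with median centring (0.0661) and Tbx5 without the filter (0.0743) and with array weights (0.0541). Under the stricter filter, on the lowest 60%, Kcnd2 was not tested and 1 gene was higher. In the covariate fit 0 were higher and 1, Nkx2-5, was lower, with Kcnd2 at 1.47, Trps1 at 0.27, Cxcl12 at -0.29, Tbx5 at -0.55 and Smyd1 at -0.10.

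**Figure D4:**
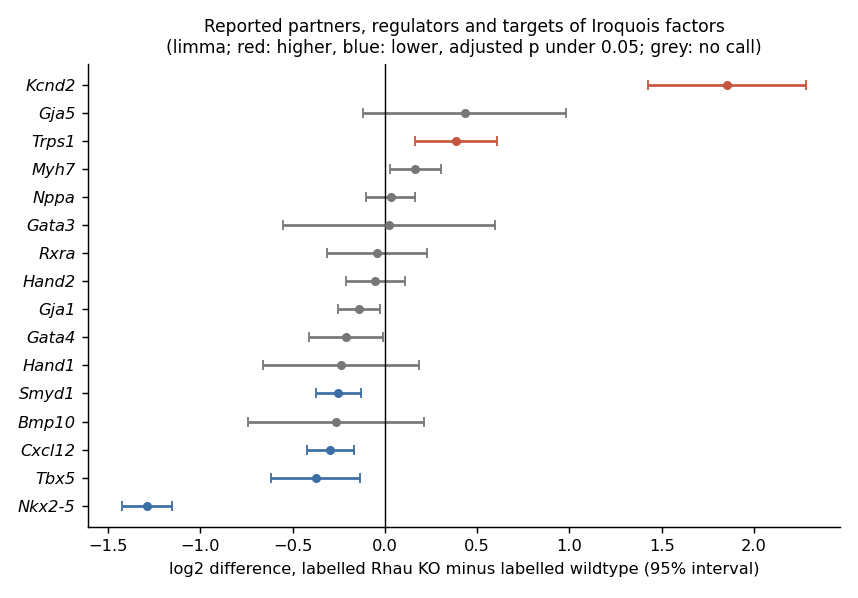
Log2 difference, labelled Rhau KO minus labelled wildtype (horizontal axis), of the brightest tested probe set of each of 16 genes reported as partners, regulators or targets of Iroquois factors, with limma's 95% interval; red is higher, blue lower, grey without a call at adjusted p below 0.05. Kcnd2 and Trps1 lie above 0, and Nkx2-5, Tbx5, Cxcl12 and Smyd1 below it.

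Chamber and cell type lists are given beside Irx3 and Irx2 because Iroquois genes are expressed regionally, and in bulk hearts fewer cells of a type and less RNA per cell cannot be told apart. Of 10 measured ventricular genes 3 were higher and 1 lower, of 11 atrial genes 1 was higher and 6 lower, and of 11 trabecular and conduction genes 1 was higher and 3 lower. Beside these counts and those below, 6.77% of all 12416 genes counted by the brightest probe set were higher and 9.75% lower. The lists share genes, so their counts are not independent. Tbx5 is among the lower genes of the atrial, the trabecular and the partner lists. Nkx2-5 is lower in the trabecular and partner lists, and Myh6 and Myl7 in the atrial and cardiomyocyte lists. Cardiomyocyte markers had 0 higher and 4 lower of 11, with summed linear signal of 256558 to 268592 under the wildtype label and 226471 to 257039 under the Rhau KO label. Endocardial and endothelial markers had 6 higher and 0 lower of 16, and their summed signal was 16743 to 17830.3 under the wildtype label and 19061.5 to 20476 under the Rhau KO label. Neural crest and neuronal markers had 3 higher of 8 (7221 to 7854 against 8824 to 9355), and macrophage markers 2 higher of 12 (3403 to 3756 against 4521 to 5506). The brightest member of the neuronal list is Hand2, also on the ventricular list, with log2 means of 12.07 (wildtype label) and 12.02 (Rhau KO label). It makes up most of the neuronal sums left without Ednrb, given below, and sums without Hand2 were not made. Erythroid markers had 7 lower of 10, with sums of 93593 to 100018 against 71391 to 89356. Of 6 cartilage and limb markers 1 was higher and 1 lower (3309 to 3698 against 3770.45 to 4414). Epicardial markers (10 measured, 13171 to 14712 against 12228 to 13407.5) and lung, liver and gut epithelium markers (5 measured, 466 to 586 against 387 to 459) had none called. No measured marker of these cell types was at 0 on any array. The sums of the endothelial, neuronal, macrophage and cartilage lists were higher on every array labelled Rhau KO. Those of the atrial (106121 to 112579 against 86517 to 96530.5), erythroid and epithelium lists were lower on every such array. Without the member of largest difference, an alternative added after seeing the data, the endothelial sums stayed higher (without Kdr, 15929.5 to 17223 against 17870.3 to 19432). The atrial sums without Stard10 (101869 to 108051 against 84745 to 94635.5) and the erythroid sums without Epb42 (93306.5 to 99664 against 71324 to 89206) stayed lower. Members were left out by log2 difference and not by their share of a sum. Stard10 and Epb42 make up little of these sums, so leaving them out could change little. Atrial and erythroid sums without their brightest members were not made. The groups overlapped for the macrophage list without the lysozyme gene Lyz2 (3238 to 3598 against 3402 to 4167), for the neuronal list without Ednrb (5099 to 5661 against 5252 to 5849.6) and for the cartilage list without the collagen gene Col2a1 (3104 to 3447 against 2713 to 3184). They also overlapped for the epithelium list without Epcam (345 to 451 against 296 to 406). The part of any of these cell types in the Irx3 and Irx2 values was not tested.

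By pattern over the 6 arrays, the probe sets most like Irx3 were those of Fxr1, an RNA-binding protein gene, Rgs2, a regulator of G-protein signalling, and Zfp938, with Pearson correlations of 0.997 each. All 3 were called higher, by 0.32, 0.81 and 0.61. The nearest to Irx4 were the checkpoint kinase gene Chek1, the sodium channel subunit gene Scn2b and Rcbtb2, at 0.994, 0.988 and 0.988, and none of them was called. These are descriptions over 6 arrays that share the split by label, picked from all tested probe sets that name 1 gene.

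**Figure D5:**
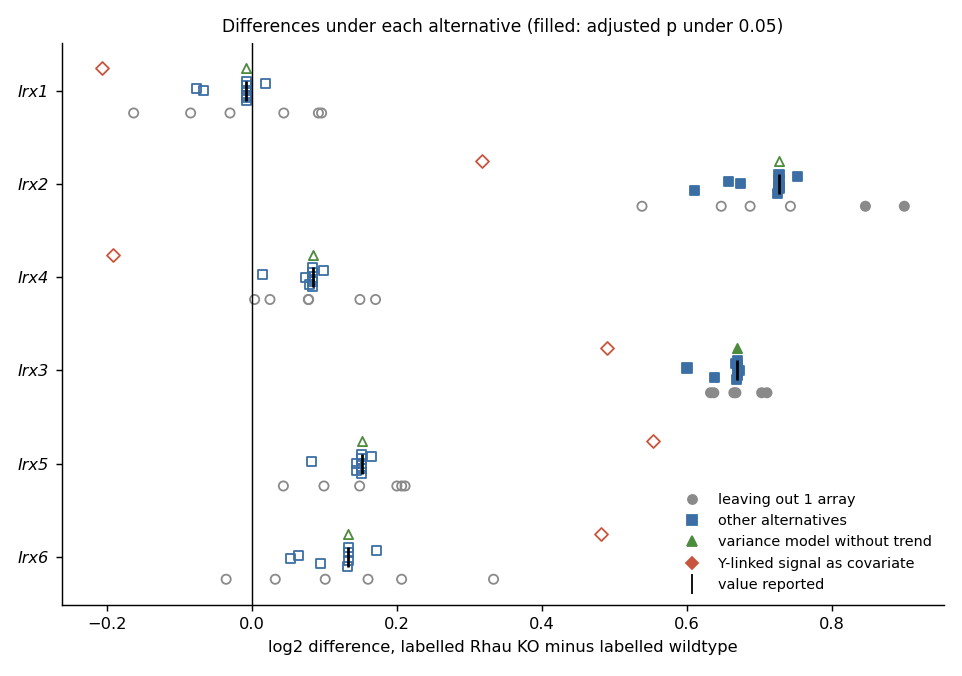
Log2 difference of each Iroquois probe set (horizontal axis) as reported (black bar), with each array left out (circles), with the variance modelled without a trend (triangles), with Y-linked signal as covariate (diamonds) and under the other alternatives (squares); filled symbols have adjusted p below 0.05. Outside the covariate fit, where it is at 0.49 and open, Irx3 stays between 0.60 and 0.71 and is called, and Irx2 is open in 4 of 6 fits that leave out an array.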

How the data were processed

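Amplified, biotin-labelled RNA was hybridised to 1 array for each sample, per the labels' protocols. The deposited values are log2 signals for each probe set, which the authors made with MAS5 (version unstated), per the submitters' processing notes. On the linear scale the 2% trimmed mean was 500 on all 6 arrays, so values were used as deposited, with no pseudocount. MAS5 values of single probe sets carry no detection call here, so low signals cannot be told from background. Of 45101 probe sets, 64 controls and the lowest 40% by mean (under 5.90 on the log2 scale) were set aside, and 27022 were tested with limma 3.58.1 (lmFit, eBayes with trend; R 4.3.3), two-sided, adjusted over all of them. Python 3.11.15, pandas 2.3.3 and matplotlib 3.10.9 served for tables and plots. The fit was tested on simulated arrays.

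The members and gene lists were chosen with earlier results of these data known. Named genes are all members, Dhx36, cluster neighbours with a probe set and, in the lists described by gene, up to 4 called genes of largest difference or else the 2 brightest; other genes are named after their values were seen. Ratios within arrays and the motifs other than ACANNTGT were also chosen then. Protein sequences were not used here. Alternatives covered pseudocounts of 1 and 64, no filter, a filter on the lowest 60%, quantile normalization, median centring, 1 probe set a gene, no trend, weights for arrays, a replicate block, a Y-linked covariate and leaving out each array. List sums without the member of largest difference were added after seeing the data.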

Additional observations from a re-analysis of the deposited data

How the results depend on the processing

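The count of Iroquois probe sets called higher was 2 in the reported fit, 1 without a variance trend, 0 with the Y-linked covariate and 1 to 2 when an array was left out; it was 2 under the other alternatives, and the count called lower was 0 under all, from 0 to 0 when an array was left out. The cause of these changes was not tested. Irx3 was called in 16 of 17 alternatives and Irx2 in 11 of 17. Under the stricter filter Irx6 was not tested. Differences near 0 changed sign: Irx1 stood at 0.019 with array weights and from -0.16 to 0.10 when an array was left out (above 0 without wildtype replicate 1 or 3 or Rhau KO replicate 2), Irx4 at -0.19 with the Y-linked covariate, Irx6 from -0.036 without Rhau KO replicate 1 to 0.33 without Rhau KO replicate 3, Pbx2 at -0.025 with median centring and Pbx3 at 0.034 with the Y-linked covariate.

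Arrays of the same replicate number shared no deviations (correlations of -2.79e-04, 0.04 and 0.0055 over tested probe sets), and not every array was closest to its own number. With the replicate block the count called higher was 2 and lower 0. Over all probe sets, 1824 were called higher and 1858 lower; the counts were 886 and 903 without a trend, 1007 and 2528 with median centring, 1018 and 1336 with 1 probe set a gene, where fewer were tested, 28 and 110 with the Y-linked covariate, and 1066 to 1291 and 1147 to 1592 when an array was left out.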
